A study of Mus musculus with 12 samples.

Results

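Open chromatin of wild-type Th1 cells was compared with that of wild-type naive CD4+ T cells of the mouse. The 4 libraries, of 12 in the series, were the 2 of each cell type that the labels give as wild type, strain C57BL/6J, with the spleen as the tissue. The assay was ATAC-seq, a method that marks accessible DNA by insertions of a transposase. The Th1 cells were naive cells grown for 6 days on plate-bound anti-CD3 with soluble anti-CD28, 10 ng/mL IL-12 and 1 ng/mL IL-2. The naive cells were isolated from spleen by negative selection and were neither stimulated nor cultured. T cell receptor stimulation, growth in culture and IL-12 therefore cannot be told apart in this comparison. The Th1 libraries are 2 biological replicates, whereas the naive libraries are 2 technical replicates of 1 biological sample, so the naive spread is technical and holds no difference between animals. Age and sex of the mice are not stated in the labels. Libraries that took no part in defining the groups are used further on as a second reading: Th1 and naive cells of C57BL/6J-Ets1-SE-KO mice, which are labelled as lacking a super-enhancer of Ets1, and wild-type Th2 cells, which were grown for 6 days with IL-4 and an antibody against interferon gamma.

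Each library is a list of called peaks with a −log10 q-value per peak, and the number of reads behind it is unknown. The Th1 lists held 44223 and 34746 peaks on chromosomes 1 to 19 and X, and the naive lists 52571 and 56195. Overlapping peaks of the 4 lists were merged into 79354 regions, of 110642 when all 12 lists are merged. A region is Th1-only where both Th1 and neither naive library had a peak, naive-only in the reverse case, and open in all 4 where each library had one. An absent call can be a weak signal or a shallow library. Main counts are therefore also given with the 34746 strongest peaks of each of the 4 lists, termed equal lists. Lists of all other libraries were left at full length. No test was run, because the smallest two-sided p of an exact permutation test at this size is 0.333, and a class holds only what both libraries of a cell type show.

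Naive CD4+ T cells circulate through lymphoid tissue in a resting state that is kept by transcription factors such as TCF1 (Tcf7), LEF1, FOXO1, FOXP1, BACH2 and KLF2. Stimulation through the T cell receptor brings AP-1, NFAT and NF-kappaB factors to the chromatin, and IL-12 acts through STAT4, which with T-bet (Tbx21) drives the Th1 programme of interferon gamma, chemokines and their receptors. Most elements that change during such a step are enhancers away from gene starts, while most promoters stay accessible.

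Promoters that were called in 1 cell type alone are shown first, because their sequences can be read from the RefSeq promoter table (GRCm38.p6, the build of the peak lists), which spans 250 bases before and 50 bases after a start. Hlx encodes a homeobox factor that acts with T-bet, Ifngr2 the signalling chain of the interferon gamma receptor, Klrk1 the activating receptor NKG2D, and Cd80 a ligand of CD28 and CTLA-4. All 4 promoter windows lay within a Th1-only region. These windows are chr1:184732444-184732743 (minus strand), chr16:91546809-91547108 (plus), chr6:129623815-129624114 (minus) and chr16:38458683-38458982 (plus). Cd80 was chosen after its motif match was seen. Capitals mark matches to the motifs named further on.
Hlx: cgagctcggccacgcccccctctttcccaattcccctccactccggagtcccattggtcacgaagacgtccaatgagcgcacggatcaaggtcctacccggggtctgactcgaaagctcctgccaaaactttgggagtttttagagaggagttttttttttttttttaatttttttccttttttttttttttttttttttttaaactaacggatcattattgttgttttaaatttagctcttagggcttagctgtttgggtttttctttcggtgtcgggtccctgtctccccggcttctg
Ifngr2: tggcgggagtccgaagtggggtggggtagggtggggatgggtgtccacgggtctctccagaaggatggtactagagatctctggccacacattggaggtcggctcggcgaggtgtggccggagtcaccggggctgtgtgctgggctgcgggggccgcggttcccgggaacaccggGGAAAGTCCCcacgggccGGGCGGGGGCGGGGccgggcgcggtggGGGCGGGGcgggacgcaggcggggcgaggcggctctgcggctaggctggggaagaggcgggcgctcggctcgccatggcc
Klrk1: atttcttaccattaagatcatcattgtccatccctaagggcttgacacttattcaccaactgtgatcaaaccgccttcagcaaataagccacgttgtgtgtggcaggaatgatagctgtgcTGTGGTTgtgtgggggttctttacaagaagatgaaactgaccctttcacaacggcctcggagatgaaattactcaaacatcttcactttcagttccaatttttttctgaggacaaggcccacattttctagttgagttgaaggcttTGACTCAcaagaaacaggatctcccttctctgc
Cd80: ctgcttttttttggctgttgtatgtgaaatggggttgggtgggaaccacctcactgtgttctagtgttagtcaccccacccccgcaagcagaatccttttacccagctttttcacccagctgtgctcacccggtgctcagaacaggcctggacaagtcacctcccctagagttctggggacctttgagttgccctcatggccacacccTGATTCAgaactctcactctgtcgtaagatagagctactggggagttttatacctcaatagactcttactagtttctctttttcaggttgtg
The capitals are an AP-1 and a RUNX string in Klrk1, an AP-1 string in Cd80, and an NF-kappaB string with 3 GC boxes, of which 2 overlap, in Ifngr2, while Hlx holds none of the strings. Beside these stand 3 windows that were called in naive cells alone. Il2 encodes the T cell growth factor IL-2, Cd3d the delta chain of the T cell receptor complex, and Cd27 a co-stimulatory receptor of naive and memory T cells. Their windows are chr3:37125905-37126204 (minus), chr9:44981536-44981835 (plus) and chr6:125236978-125237277 (minus).
Il2: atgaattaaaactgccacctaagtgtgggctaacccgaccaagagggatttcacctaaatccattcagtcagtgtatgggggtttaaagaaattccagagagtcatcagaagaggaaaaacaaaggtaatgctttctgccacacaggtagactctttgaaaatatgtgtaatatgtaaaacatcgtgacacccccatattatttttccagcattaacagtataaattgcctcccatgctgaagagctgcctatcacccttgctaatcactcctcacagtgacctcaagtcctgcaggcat
Cd3d: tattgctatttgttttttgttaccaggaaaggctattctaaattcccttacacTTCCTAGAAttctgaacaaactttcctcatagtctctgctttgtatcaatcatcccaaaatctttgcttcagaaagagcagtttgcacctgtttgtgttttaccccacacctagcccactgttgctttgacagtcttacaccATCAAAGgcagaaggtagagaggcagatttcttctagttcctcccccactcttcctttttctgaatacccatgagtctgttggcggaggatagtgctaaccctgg
Cd27: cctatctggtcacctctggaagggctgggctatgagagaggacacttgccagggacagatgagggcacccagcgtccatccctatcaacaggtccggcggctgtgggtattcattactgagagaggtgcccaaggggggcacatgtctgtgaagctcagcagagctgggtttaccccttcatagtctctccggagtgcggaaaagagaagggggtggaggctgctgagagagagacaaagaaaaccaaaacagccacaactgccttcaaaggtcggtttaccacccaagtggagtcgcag
The capitals in Cd3d are a STAT and a TCF/LEF string. The region at the Cd3d start covered 255 of the 300 bases and that at Cd27 covered 181. The promoter of Ifng, the gene of interferon gamma, had a peak in all 4 libraries and stood at a higher rank in Th1 cells (values below). Its window is chr10:118440796-118441095 (plus), and its capitals are a STAT string at the far end.
Ifng: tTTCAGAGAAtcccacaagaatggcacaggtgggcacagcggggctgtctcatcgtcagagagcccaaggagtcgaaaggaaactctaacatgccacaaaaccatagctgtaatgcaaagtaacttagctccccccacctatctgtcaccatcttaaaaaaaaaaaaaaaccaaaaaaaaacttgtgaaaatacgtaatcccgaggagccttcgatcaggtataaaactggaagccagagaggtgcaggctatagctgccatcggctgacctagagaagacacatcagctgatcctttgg

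Over the genome more regions were called in naive cells alone than in Th1 cells alone. There were 10146 Th1-only regions, 12.8% of all merged regions and 33.8% of the 30047 open in both Th1 libraries. Naive-only regions numbered 22326, which is 28.1% of all and 47.0% of the 47497 open in both naive libraries, and 18827 regions were open in all 4. The surplus of naive-only regions moved with the length of the lists. With equal lists there were 11116 Th1-only regions (41.0% of those open in both Th1 libraries) and 12410 naive-only regions (40.0%), beside 14903 open in all 4. Leaving out the shorter Th1 list gave 18295 Th1-only regions. Of the Th1-only regions 87.2% were also Th1-only with equal lists, against 49.9% of the naive-only regions. A naive-only region in the text is therefore often one that lies further down the naive lists. The 2 Th1 libraries shared 68.9% and 87.9% of their regions with each other, and the 2 naive libraries 92.2% and 86.5%. Between the cell types a Th1 library shared 55.8% to 62.1% of its regions with a naive one.

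**Figure D1:**
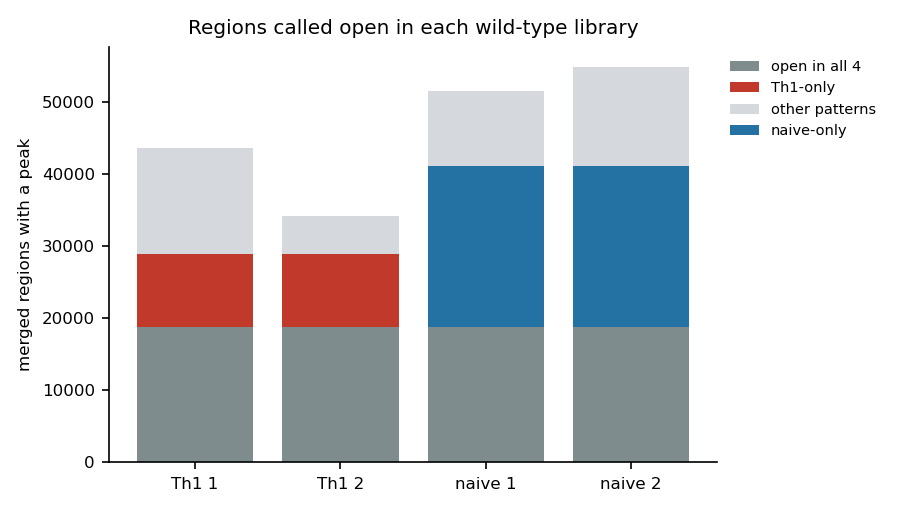
Merged regions with a peak in each wild-type library (vertical axis, number of regions), split into regions open in all 4 libraries, those called in 1 cell type alone (Th1-only or naive-only) and other patterns. The Th1 libraries hold 43614 and 34186 regions and the naive libraries 51513 and 54925, and 18827 of each bar are open in all 4.

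Cell-type-specific regions lay away from gene starts. Of the Th1-only regions 3.77% and of the naive-only regions 4.78% were within 1 kb of a protein-coding start, against 41.8% of those open in all 4 (chromosome 18, which has no starts in the promoter table, left out). The order of the first 2 shares turned with equal lists, at 6.58% for Th1-only and 4.37% for naive-only regions. The median distance to a start was 38.5 kb for Th1-only, 31.1 kb for naive-only and 7.62 kb for shared regions. Both specific classes were narrower than shared regions, with median widths of 467 bp (Th1-only) and 398 bp (naive-only), against 754 bp for shared ones. The median over all merged regions was 423 bp. A shared region joins peaks of all 4 lists, and a specific one those of 2. Within gene bodies beyond promoters lay 54.6% of Th1-only and 54.5% of naive-only regions.

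The letters of the promoter windows differed between the classes. Of all 21019 windows, 215 overlapped Th1-only regions and no other class, 412 naive-only regions alone, and 8976 regions open in all 4. These windows were read with the full lists only. With equal lists, Th1-only regions within 1 kb of a start numbered 705, against 369 with the full lists, and naive-only ones 525, against 1034. A gene with several starts can give several windows, as did Tnfsf13b, Cgref1, Sgms2 and Upp1 for AP-1 and P2ry10b for TCF/LEF, so windows are not independent promoters. The palindromic AP-1 string TGANTCA, the site of FOS and JUN dimers, was found in 18.6% of Th1-only windows (40 of 215) and 5.10% of naive-only windows (21 of 412), against 7.04% of all windows. The TCF/LEF string ATCAAAG stood in 0.930% of Th1-only windows (2 of 215) and 5.10% of naive-only windows (21 of 412), against 3.25% of all. Windows with the AP-1 string thus made up a larger share of the Th1-only than of the naive-only class. The reverse held for the TCF/LEF string. Among the 10343 windows that overlapped no region, 9.54% held the AP-1 string and 4.15% the TCF/LEF string. The GC box GGGCGGGG was in 38.6% of Th1-only and 18.7% of naive-only windows, against 23.8% of all. Base composition moved with these classes, since the median GC content was 64.3% in Th1-only and 54.7% in naive-only windows, and its part in the shares was not tested. The 40 Th1-only windows with the AP-1 string had a median GC content of 54.7%, against 66.0% in the 175 without it. Letters that differed less were the NF-kappaB string (1.86% of Th1-only, 1.46% of naive-only, 0.428% of all windows), the STAT string TTCNNNGAA (9.30%, 5.34% and 7.76%) and the RUNX string TGTGGTT (6.51%, 5.34% and 4.73%). The IRF string was in 3.72% of Th1-only, 4.85% of naive-only and 3.36% of all windows, and the T-box string AGGTGTGA in 0.465%, 0.971% and 1.17%. The ETS string CCGGAAGT was in 2.79% of Th1-only and 3.16% of naive-only windows, but in 10.8% of windows open in all 4, against 5.20% of all. The CRE string TGACGTCA was in 1.40%, 0.971% and 3.95% of the same 3 classes, against 2.26% of all. Strings were searched on both strands, none contains another, and a match says only that the letters are present.

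Among the regions open in all 4 libraries, ranks were compared instead of presence. Each region was given its percentile of −log10 q among the 18827 shared regions of its list, 100 being the strongest. A region is ranked higher in Th1 where both Th1 values exceed both naive values and the means differ by at least 20 points, and lower in the reverse case. Of the shared regions 3813 (20.3%) ranked higher and 3908 (20.8%) lower in Th1 cells. The libraries of a cell type differed by a median of 11.2 points in Th1 and 4.11 points in naive cells, and libraries of different cell types by 17.0 to 18.1 points. Promoters and other regions moved differently. Within 1 kb of a start 19.5% ranked higher and 11.004% lower in Th1 cells, whereas elsewhere 20.7% ranked higher and 27.8% lower. Equal lists gave 23.4% and 11.8% at promoters, and 19.6% and 28.9% elsewhere. Ranks are relative within a list, so a shift of promoters upward and of distal regions downward cannot be told apart.

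**Figure D2:**
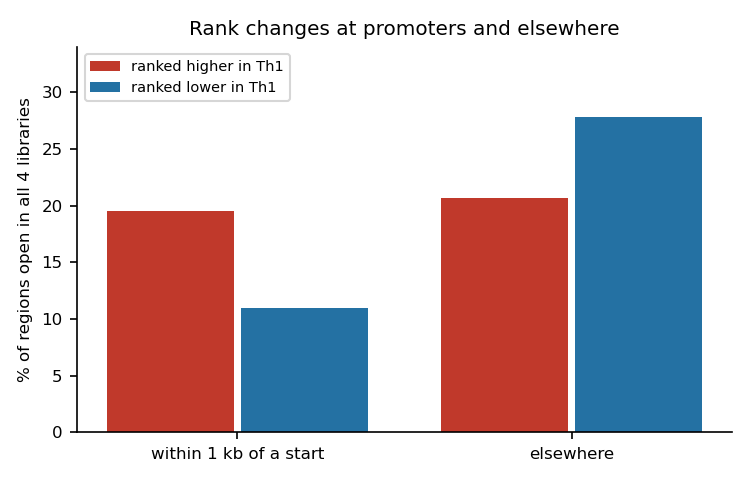
Share of regions open in all 4 libraries (vertical axis, percent) that ranked higher or lower in Th1 than in naive cells, within 1 kb of a protein-coding start and elsewhere. Higher exceeds lower at promoters (19.5% and 11.004%), and lower exceeds higher elsewhere (27.8% and 20.7%).

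The effector genes of Th1 cells had regions in both cell types, and how many of them were shared depended on list length. A gene's regions are those within its body or 20 kb on either side. Ifng had peaks in 5 and 4 regions of the Th1 libraries and in 6 and 4 of the naive libraries. Its promoter region (chr10:118440619-118441327) stood at ranks 50.0 and 38.8 in Th1 cells, against 10.1 and 11.9 in naive cells. An element 17.6 kb downstream of the start (chr10:118458604-118459141) stood at 62.5 and 64.9 in Th1 cells, against 0.417 and 2.01 in naive cells. Both elements thus ranked higher in both Th1 than in both naive libraries among the shared regions. Among all regions of a list, the promoter stood at percentiles of 68.5 and 51.3 in Th1 cells, against 30.1 and 35.9 in naive cells, and the downstream element at 77.3 and 74.8 in Th1 cells, against 2.48 and 10.02 in naive cells. Ifng also had 2 Th1-only regions, at 5.19 kb upstream and 10.8 kb downstream of the start, and 2 naive-only regions at 19.1 and 20.3 kb. With equal lists it had 4 Th1-only regions, 1 naive-only region and none open in all 4, against 2, 2 and 2 with the full lists. The promoter and the upstream region had a peak in neither wild-type Th2 library, and the upstream region in 1 of the 2 knockout Th1 libraries. The element 17.6 kb downstream had a peak in both Th2 libraries, and the Th1-only region 10.8 kb downstream in 1.

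The neighbouring chemokine genes Ccl3 and Ccl4, which encode inflammatory chemokines, shared peaks in 5 and 6 regions in Th1 cells and in 2 and 2 in naive cells, with 2 Th1-only and no naive-only region. Each of the 2 had a peak in 1 knockout Th1 library, and their list percentiles ranged from 4.84 to 55.6. With equal lists the pair of genes had the same 2 and 0, and no region open in all 4. Cxcr3, the receptor gene that marks Th1 cells, had 1 and 2 regions in Th1 cells and 1 and 0 in naive cells. Its Th1-only region lay 3.04 kb upstream (chrX:101737190-101737887) at list percentiles of 26.1 and 35.9, and it had a peak in neither Th2 library but in 1 of the 2 knockout naive libraries. Fasl, the gene of a death ligand of effector T cells, went the other way. It had 8 and 7 regions in Th1 cells and 9 and 9 in naive cells, with 5 of the 7 shared ones ranked lower in Th1 cells. The promoter of Fasl stood at ranks 10.7 and 49.3 in Th1 cells, against 96.0 and 96.0 in naive cells. Over the 10 Th1 effector cytokine and chemokine genes, 6 of 27 regions open in both Th1 libraries were Th1-only (22.2%), against 30.8% for all protein-coding genes, and 12 of 33 were naive-only (36.4%, against 44.7%). With equal lists 9 of 17 were Th1-only (52.9%, against 37.8%), so the side on which this list falls depends on list length.

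Of the 10 cytokine receptor genes of Th1 cells, 5 had a Th1-only region, and 12 of 41 regions open in both Th1 libraries were Th1-only (29.3%, against 30.8% for all genes; 35.0% against 37.8% with equal lists). Il12rb2, the signalling chain of the IL-12 receptor, had 11 and 12 regions in Th1 cells and 10 and 10 in naive cells, so the totals were close. Of these, 5 were Th1-only and 4 naive-only, or 5 and 3 with equal lists. The Th1-only regions included one 19.9 kb upstream at list percentiles of 88.4 and 89.1 (among all regions of a library), and a naive-only one 36.2 kb into the gene stood at 93.8 and 95.6. That naive-only region was flanked by Th1-only regions at 34.4 and 40.9 kb. A gene-body region at 8.62 kb, shared by all libraries, stood at ranks 84.6 and 86.0 in Th1 cells, against 20.6 and 14.6 in naive cells. All 5 Th1-only regions had a peak in both Th2 libraries. Il18rap, a chain of the IL-18 receptor, had a Th1-only region 0.751 kb into the gene at list percentiles of 86.3 and 95.1. By contrast the interferon gamma receptor gene Ifngr1 had 3 and 3 regions in Th1 cells and 11 and 12 in naive cells, with no Th1-only and 6 naive-only regions, and 4 with equal lists. Il2rb, the IL-2 receptor beta chain, had 4 and 4 regions in Th1 cells and 10 and 10 in naive cells, with 6 naive-only regions and 1 Th1-only and 2 naive-only with equal lists. Il2ra, the alpha chain, had 13 and 10 regions in Th1 cells and 13 and 13 in naive cells, with 3 Th1-only and 7 naive-only regions (4 and 6 with equal lists). A region in the gene body of Il2ra (chr2:11653229-11653832) stood at ranks 15.7 and 0.629 in Th1 cells, against 94.2 and 92.7 in naive cells.

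The transcription factors of the Th1 programme held Th1-only regions in 8 of 12 genes. Together 18 of their 46 regions open in both Th1 libraries were Th1-only (39.1%, against 30.8% for all genes), and 22 of 53 were naive-only (41.5%, against 44.7%). With equal lists these shares were 51.2%, against 37.8%, and 34.3%, against 37.2%. Stat4, the mediator of IL-12, had 15 and 13 regions in Th1 cells and 13 and 12 in naive cells, with 5 Th1-only regions, 4 naive-only regions (5 and 2 with equal lists) and 3 shared regions that ranked lower. Tbx21, which encodes T-bet, had 5 and 3 regions in Th1 cells and 3 and 3 in naive cells, with 1 Th1-only region 31.2 kb beyond the start and its upstream shared region at ranks 67.7 and 61.9 in Th1 cells, against 50.1 and 47.1 in naive cells. Prdm1, which encodes the effector factor BLIMP-1, had 4 Th1-only and 4 naive-only regions (4 and 3 with equal lists). In a separate list of 18 AP-1, NFAT and Nr4a factors, 22 of 79 regions open in both Th1 libraries were Th1-only (27.8%, against 30.8% for all genes). The list had 102 and 90 regions in Th1 cells and 115 and 120 in naive cells, and Fos, Junb, Nr4a1 and Nr4a3 had no Th1-only region. Batf3, an AP-1 family factor, was a one-sided member of that list, with 10 and 10 regions in Th1 cells and 2 and 2 in naive cells. Batf3 had 7 Th1-only regions and no naive-only one, and the same 7 and 0 with equal lists. Its relative Batf showed a swap of rank. The Batf promoter stood at 37.8 and 10.7 in Th1 cells, against 77.2 and 78.8 in naive cells, and an element 17.99 kb downstream at 61.1 and 82.8 in Th1 cells, against 21.7 and 22.2 in naive cells. Havcr2, the gene of the inhibitory receptor TIM-3 of Th1 cells, had a Th1-only region 19.2 kb into the gene at list percentiles of 87.6 and 91.8. A shared region of Havcr2 at 11.9 kb stood at ranks 90.6 and 96.4 in Th1 cells, against 15.5 and 17.3 in naive cells.

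Genes of the naive programme had naive-only shares above that of all genes. For 7 homing genes 39 of 60 regions open in both naive libraries were naive-only (65.0%), and for 19 quiescence and memory factors 168 of 288 (58.3%), against 44.7% for all protein-coding genes. With equal lists the shares were 63.4% and 54.7%, against 37.2%. Their Th1-only shares were 31.0% and 29.1%, against 30.8%, but 46.2% and 43.4%, against 37.8%, with equal lists. The myeloid list, with 15 of 25 regions naive-only (60.0%, and 66.7% with equal lists), lay in the same range. Some effector lists also lay above the share of all genes. Effector chemokine and adhesion receptors had 50.7% (54.3% with equal lists), and activation and inhibitory receptors 47.3% (49.3%). Th1 cytokine receptors had 50.7% (40.0%) and Th17 genes 52.4% (42.3%). Th1 transcription factors and cytotoxic, cell cycle, metabolic and housekeeping genes lay below all genes with both list lengths. Lef1 had 11 and 11 regions in Th1 cells and 29 and 34 in naive cells, with 1 Th1-only and 16 naive-only regions, or 2 and 10 with equal lists. That 1 Th1-only region, 58.8 kb into the gene (chr3:131169065-131169677), was among the strongest of the Th1 lists, at percentiles 98.1 and 95.4. Foxp1 had 34 and 29 regions in Th1 cells and 66 and 65 in naive cells, with 6 Th1-only and 37 naive-only regions (9 and 24 with equal lists). Bach2, which restrains effector genes, had 37 and 31 regions in Th1 cells and 47 and 48 in naive cells, with 10 Th1-only and 28 naive-only regions (10 and 14). In all 3 genes the naive libraries had more regions than the Th1 libraries without overlap. The same held near all protein-coding genes together, with 36042 and 28644 regions in Th1 and 42602 and 45392 in naive libraries. Tcf7 had 8 and 4 regions in Th1 cells and 12 and 12 in naive cells, and 3 of its 6 naive-only regions lay 7.13 to 16.9 kb into the gene at list percentiles from 84.98 to 88.2.

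Il7r, the receptor for the survival cytokine IL-7, is a gene in which the neighbouring elements differed in opposite directions. A naive-only region 3.35 kb upstream (chr15:9533227-9533843) stood at list percentiles of 98.8 and 98.3, and a Th1-only region 5.27 kb upstream (chr15:9535150-9535787) at 82.7 and 74.6. A shared region 19.2 kb upstream stood at ranks 72.7 and 67.3 in Th1 cells, against 0.943 and 1.95 in naive cells. The totals were 5 and 5 regions in Th1 cells and 7 and 6 in naive cells, so a count of regions alone would not show the exchange. Klf2, a quiescence factor that controls homing receptors, was alike. Its promoter stood at ranks 52.4 and 36.2 in Th1 cells, against 83.7 and 79.1 in naive cells, and a region 11.7 kb downstream at 87.3 and 87.5 in Th1 cells, against 21.8 and 10.2 in naive cells. Ccr7, the receptor for lymph node homing, had 2 Th1-only and 7 naive-only regions, or 3 and 4 with equal lists. Within 20 kb of Ccr7, 2 shared regions differed in opposite directions. The one at chr11:99154882-99155502 stood at ranks 39.3 and 40.3 in Th1 cells, against 92.8 and 88.5 in naive cells, and the one at chr11:99150059-99151233 at 58.0 and 70.6 in Th1 cells, against 3.39 and 2.95 in naive cells.

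**Figure D3:**
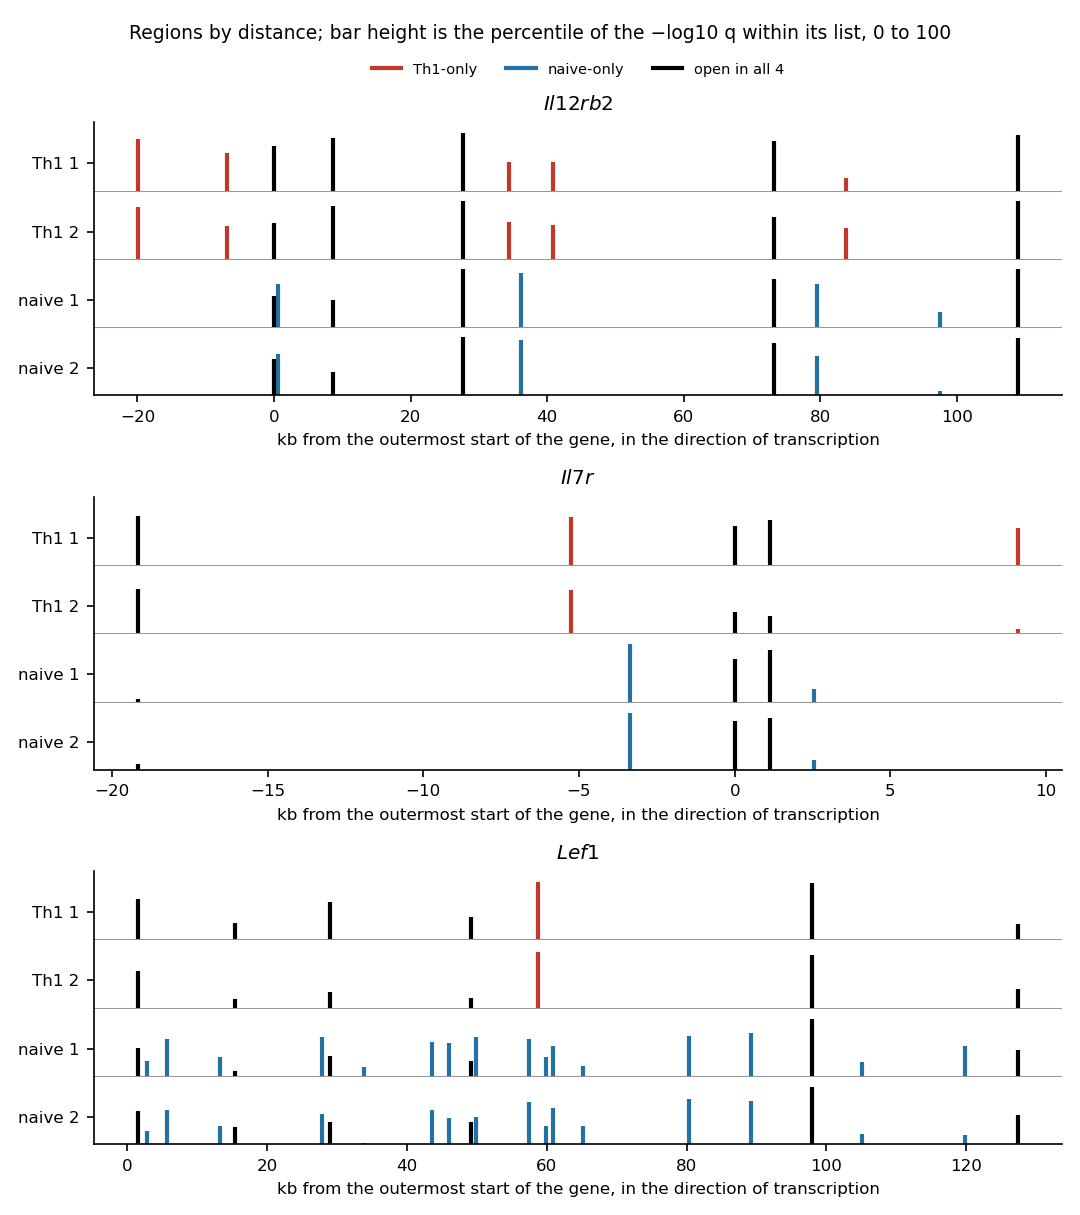
Regions of Il12rb2, Il7r and Lef1 in the 4 wild-type libraries (rows, Th1 above naive) by distance from the outermost start of the gene (horizontal axis, kb), with bar height as the percentile of −log10 q within its list, from 0 to 100. Regions of other patterns are not drawn. Both Th1-only and naive-only bars occur at Il12rb2 (5 and 4) and Il7r (2 and 2), whereas Lef1 has 1 Th1-only and 16 naive-only regions.

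Ifngr2 and Il2 showed the same kind of exchange near their starts. In Ifngr2 a Th1-only region 12.2 kb upstream (chr16:91534494-91534849) stood at list percentiles of 98.5 and 96.5. Next to it, a shared region 12.8 kb upstream stood at ranks 41.9 and 39.6 in Th1 cells, against 99.7 and 99.6 in naive cells. The Th1-only promoter region (chr16:91546481-91547655), whose window is printed above, stood at list percentiles of 32.0 and 34.8. A naive-only region 0.771 kb upstream of the start stood at 75.3 and 76.7. These regions of Ifngr2 are close neighbours, and whether they are separate elements or a shifted peak boundary was not tested. The naive-only promoter region of Il2 stood at 54.2 and 48.8, while a Th1-only region 2.30 kb upstream stood at 72.7 and 58.6 and a weaker one 1.48 kb upstream at 14.9 and 0.490. Both Th1-only regions of Il2 had a peak in both Th2 and both knockout Th1 libraries. The Klrk1 promoter region stood at 80.0 and 73.0, and the Cd3d and Cd27 promoter regions at 59.4 and 39.9 and at 36.9 and 38.8 in naive cells.

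Cell division, activation and calcium-dependent genes showed both patterns. Cdk6, a kinase of cell cycle entry, had 20 and 15 regions in Th1 cells and 12 and 13 in naive cells, with 8 Th1-only and 4 naive-only regions (9 and 4 with equal lists). Nfatc1, a calcium-activated factor, had 9 and 9 regions in Th1 cells and 20 and 24 in naive cells, with 2 Th1-only and 14 naive-only regions (3 and 10). Its relative Nfatc2 had 15 and 10 regions in Th1 cells and 11 and 11 in naive cells, with 7 Th1-only and 6 naive-only regions (7 and 3). Naive cells thus had more regions at Nfatc1 without overlap, as near all protein-coding genes together, whereas the region counts at Nfatc2 overlapped. Cd40lg, which encodes the ligand by which helper T cells stimulate B cells, had 3 and 3 regions in Th1 cells and 8 and 8 in naive cells, with 5 naive-only regions and none Th1-only, also with equal lists. Hk2, the hexokinase induced in growing cells, had 8 and 8 regions in Th1 cells and 4 and 4 in naive cells. Of these, 3 were Th1-only and 1 naive-only (2 and 1 with equal lists). Its list went the other way, since the 13 metabolic and growth genes had 69 and 59 regions in Th1 cells and 80 and 82 in naive cells. Of 51 open in both Th1 libraries 10 were Th1-only (19.6%, against 30.8% for all genes). Aldoa, Eno1, Ldha, Hif1a and Slc2a1 each had more regions in both naive than in both Th1 libraries. Il10, the gene of an inhibitory cytokine that Th1 cells can make, had 4 and 4 regions in Th1 cells and 2 and 2 in naive cells, with 3 Th1-only and 1 naive-only region under both list lengths.

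Over the genome, close neighbours of opposite class were about as common as beside shared regions. Of the Th1-only regions 19.9% had a naive-only region within 5 kb, as had 24.9% of the regions open in all 4, and 10.4% of the naive-only regions had a Th1-only region within 5 kb, as had 8.15% of those open in all 4. A naive-only region had another naive-only region within 5 kb in 29.3% of cases, and a Th1-only region another Th1-only one in 15.4%. Runs of neighbouring regions of 1 class reached 8 regions for Th1-only and 13 for naive-only, or 11 and 11 with equal lists.

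Genes of T cell identity and the T cell receptor also had a naive-only share above that of all genes. Over 21 identity genes 137 of 248 regions open in both naive libraries were naive-only (55.2%, against 44.7% for all genes, and 52.7%, against 37.2%, with equal lists). Of 112 open in both Th1 libraries 31 were Th1-only (27.7%, against 30.8%). Bcl11b, a factor that holds T cell identity, had 4 and 5 regions in Th1 cells and 16 and 22 in naive cells, with 10 naive-only regions (6 with equal lists). Cd247, the zeta chain of the T cell receptor complex, had 11 and 8 regions in Th1 cells and 23 and 24 in naive cells, with 13 naive-only regions (8 with equal lists). Cd5, a brake on receptor signalling, had 3 and 1 regions in Th1 cells and 12 and 12 in naive cells, with 8 naive-only regions (5 with equal lists). None of these 3 genes had a Th1-only region, apart from 1 at Cd247 with equal lists. Ets1, a factor that T cells need for Th1 responses, had 16 and 12 regions in Th1 cells and 30 and 28 in naive cells, with 3 Th1-only and 17 naive-only regions (5 and 9 with equal lists). In a stretch 140.018 kb beyond Ets1, found as a gap of 30.61 kb without peaks in the knockout libraries, Th1 libraries had 5 and 4 regions and naive libraries 6 and 6.

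Lists of other lineages were read the same way. The share over all genes for Th1-only regions was 30.8%, or 37.8% with equal lists. Th17 genes had 17 of 30 (56.7%, and 64.3% with equal lists), with 2 Th1-only regions at Il17f, the gene of a Th17 cytokine, where Th1 libraries had 2 and 3 regions and naive libraries 0 and 0. Th2 genes had 20 of 45 (44.4%, and 59.5% with equal lists). Pparg, a nuclear receptor of Th2 cells, had 5 and 4 regions in Th1 cells and 0 and 0 in naive cells, 4 of them Th1-only, and all 4 had a peak in both Th2 libraries. B cell genes had 16 of 27 (59.3%, and 64.0% with equal lists), of which 13 were at Ebf1, a B cell factor that spans a long gene. Ebf1 had 17 and 15 regions in Th1 cells and 7 and 8 in naive cells. Housekeeping genes had 4 of 35 (11.4%, and 15.6% with equal lists) and red cell genes 0 of 7. Of the regions open in both Th1 libraries, Th1-only ones were 16 of 50 (32.0%) for genes of regulatory T cells, 6 of 18 (33.3%) for those of Tfh cells, 8 of 21 (38.1%) for those of CD8 T and NK cells, and 4 of 11 (36.4%) for myeloid genes. With equal lists the first 3 shares were 44.2%, 33.3% and 50.0%, and 3 of 10 for myeloid genes. The remaining Th1-only shares were 43.9% for effector chemokine and adhesion receptors, 33.3% for activation and inhibitory receptors, 29.4% for cell cycle genes, 29.3% for Th1 cytokine receptors, 27.8% for AP-1, NFAT and Nr4a factors, 23.1% for cytotoxic genes and 19.6% for metabolic and growth genes. In the same order they were 59.0%, 40.0%, 33.3%, 35.0%, 33.3%, 24.0% and 26.1% with equal lists. The SOCS family, feedback inhibitors of cytokine signalling, was placed near the background for Th1-only regions (7 of 25, 28.0%), but its 17 shared regions had a median rank difference of 25.7 points (Th1 minus naive), against 1.02 for all protein-coding genes (31.6 over 15 regions, against 1.30, with equal lists). Of those 17, 9 ranked higher and 3 lower in Th1 cells, with 2 of the higher ones each at Socs3, Socs5 and Cish, the last of which encodes the inhibitor CIS, and 2 of the lower ones at Socs1.

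**Figure D4:**
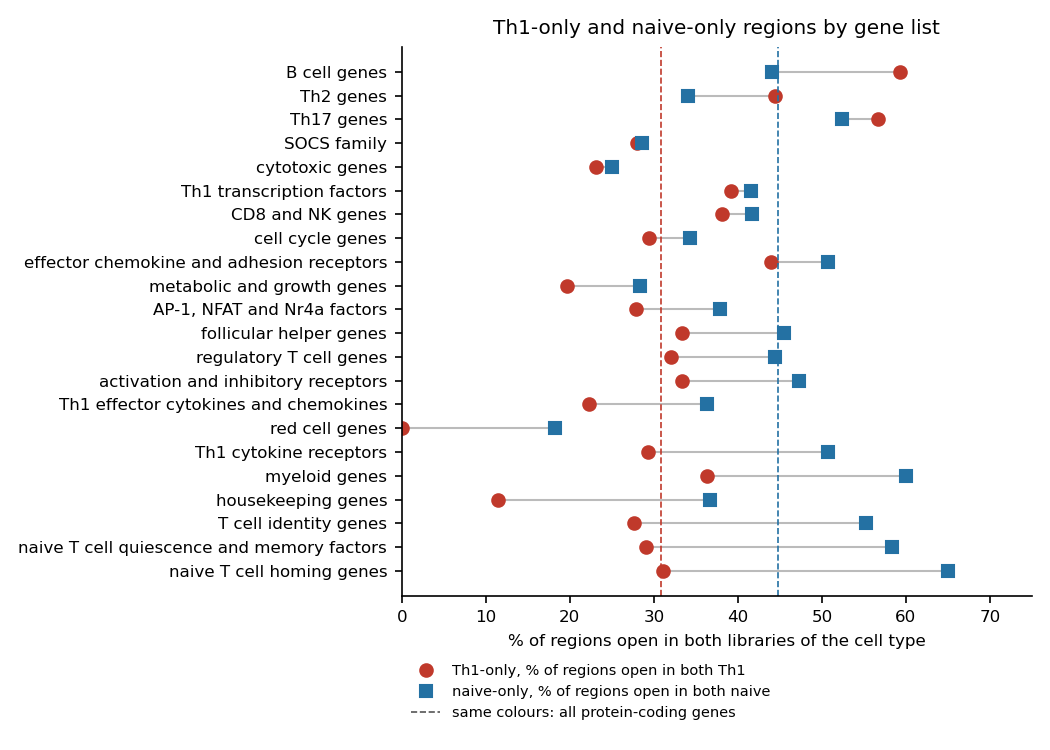
Th1-only regions as a percent of the regions open in both Th1 libraries (circles) and naive-only regions as a percent of those open in both naive libraries (squares) for 22 gene lists (rows, ordered by the difference), with dashed lines for all protein-coding genes (30.8% and 44.7%). The naive homing, quiescence and T cell identity lists lie furthest to the right for naive-only regions apart from the myeloid list, and the B cell and Th17 lists for Th1-only regions.

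The genes with most regions of a class are long ones. Lpp, which encodes a protein of cell adhesion sites, had 17 Th1-only and 15 naive-only regions (18 and 10 with equal lists). Etv6, an ETS repressor gene, Itpr1, a calcium release channel gene, and Sox5 had 14 Th1-only regions each, with 11, 17 and 23 naive-only ones. With equal lists Etv6 had 15 Th1-only and 5 naive-only regions, Itpr1 13 and 4, and Sox5 12 and 11. Fggy, a carbohydrate kinase gene, was more one-sided, with 26 and 17 regions in Th1 cells, 6 and 5 in naive cells, and 14 Th1-only against 2 naive-only regions. On the naive side, Sgms1, a sphingomyelin synthase gene, had 9 Th1-only and 28 naive-only regions (8 and 18 with equal lists), and Chn2, which encodes a GTPase-activating protein for RAC, had 4 and 2 regions in Th1 cells and 26 and 29 in naive cells, with 1 Th1-only and 23 naive-only regions. With equal lists Fggy had 11 and 1 and Chn2 2 and 14. Of all 21627 protein-coding genes 28.3% had a Th1-only region and 49.3% a naive-only one, and 4172 had both.

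The largest differences of rank at shared regions fell in genes of several functions. A region in Trps1 stood at ranks 98.6 and 98.9 in Th1 cells, against 3.59 and 0.821 in naive cells, and one in Irs2, an adaptor of insulin and IL-4 signalling, at 97.2 and 97.8 in Th1 cells, against 1.63 and 2.78 in naive cells. A region at a start of Mbnl1, a splicing factor gene, stood at 1.95 and 4.78 in Th1 cells, against 97.5 and 97.5 in naive cells. A region 23.7 kb from Cblb, a ubiquitin ligase gene that limits T cell activation, stood at 2.50 and 10.7 in Th1 cells, against 96.6 and 97.0 in naive cells. These were picked from the ends of the ranking and describe its range. Among naive-only regions the strongest lay 97.0 kb from Tle4, a co-repressor gene, and one of the next 39.1 kb from Pdcd1, which encodes PD-1, at list percentiles of 99.8 and 99.9.

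Libraries that did not define the classes were read at the same regions. Of the Th1-only regions 76.5% were also called in both knockout Th1 and neither knockout naive library, and 33.7% of the naive-only regions were called in both knockout naive and neither knockout Th1 library. The knockout naive lists held 41075 and 43823 peaks, fewer than the wild-type naive lists, and 37.2% of the naive-only regions had a peak in neither of them. With equal lists the shares were 70.2% and 50.4%, where only the wild-type lists were cut and the knockout lists kept their full length. Strength of the call moved with recurrence. With each class split into 4 equal groups by strength, 52.1% of Th1-only regions recurred in the knockout libraries in the weakest group and 93.8% in the strongest. For naive-only regions these shares were 11.3% and 70.4%. Promoters recurred less often than the rest, with 51.2% of 369 Th1-only promoter regions and 77.4% of 9406 elsewhere. Of those 369, 57 (15.4%) had a peak in both knockout naive libraries, against 2.13% of the Th1-only regions elsewhere. The promoter regions of Hlx and Ifngr2 were among them, so they were called in knockout naive cells too. The naive-only promoter region of Il2 had a peak in 1 of the 2 knockout Th1 libraries, and those of Cd3d and Cd27 in neither.

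Most Th1-only regions were shared with Th2 cells. Of the 10146, 8002 (78.9%) had a peak in both wild-type Th2 libraries and 1120 (11.04%) in neither. Of the naive-only regions 79.9% had a peak in neither Th2 library. Among genes, the 2 Th1-only regions of Ccl3 and Ccl4, that of Cxcr3 and 1 of the 2 of Ifng were in neither Th2 library, as were 3 of the 5 of Il23r. All 5 of Il12rb2 and 4 of the 5 of Stat4 were in both Th2 libraries. Presence in Th2 cells moved with the strength of the call. A peak in both Th2 libraries was found for 58.9% of Th1-only regions in the weakest of 4 equal groups and 95.5% in the strongest. The regions of Ccl3, Ccl4, Cxcr3 and Ifng in neither Th2 library stood at list percentiles from 4.84 to 62.2. The part of call strength in their absence from Th2 cells was not tested.

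**Figure D5:**
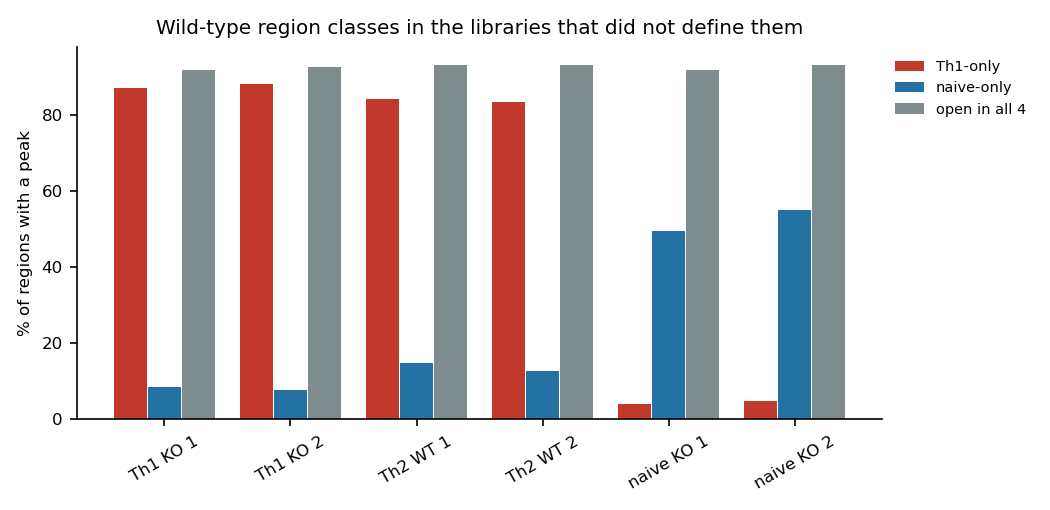
Share of Th1-only, naive-only and shared regions of wild-type cells (vertical axis, percent) with a peak in 6 libraries that did not define them, the knockout Th1, wild-type Th2 and knockout naive pairs. Th1-only regions were called in 87.1% and 88.3% in the knockout Th1 libraries, 84.3% and 83.6% in the Th2 libraries and 3.99% and 4.72% in the knockout naive libraries.

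Technical differences ran with the cell types. The median −log10 q was 3.70 and 3.82 in the Th1 lists, against 8.20 and 9.78 in the naive lists, and peaks on chromosome Y numbered 18 and 13 in Th1 lists, against 22 and 20 in naive lists. These and the list lengths cannot be told apart from the cell type. Equal lists match only the number of peaks, not the −log10 q at which a list ends. A naive peak dropped by that cut counts as absent, so a region can become Th1-only through the cut alone. Markers of other cells were read by the number of their regions. For 6 myeloid markers these were 10 and 8 in Th1 and 17 and 19 in naive libraries. Spi1 had 3 and 2 in Th1, against 7 and 7 in naive libraries, and Itgam 6 and 4, against 9 and 11. Cebpa and Csf1r each had 0 and 1 in Th1, against 0 and 0 in naive libraries. Adgre1 had 1 and 0 in Th1, against 1 and 1 in naive libraries, and Lyz2 had 0 in all 4. For 6 red cell markers the numbers of regions were 6 and 8 in Th1 and 11 and 11 in naive libraries. For 6 B cell markers they were 29 and 23 in Th1 and 23 and 22 in naive libraries, with Ms4a1 (CD20) at 0 in all 4 and Ebf1 holding 15 to 17 of the Th1 regions. For 5 CD8 and NK markers they were 16 and 14 in Th1 and 23 and 21 in naive libraries, with Ncr1 at 0 in all 4. Cd8a had 1 and 0 in Th1, against 3 and 2 in naive libraries, and Cd8b1 2 and 1, against 5 and 4. Klrb1c had 7 and 7 in Th1, against 10 and 9 in naive libraries, and Klrd1 6 and 6, against 5 and 6. The part of other cells in the naive-only regions was not tested. Of the 6 Th1 markers all had a peak in both Th1 libraries and 6 and 5 in the naive libraries, and all 6 pan-T markers had one in every library, so presence near these genes does not separate the cell types.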

How the data were processed

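The submitters' processing notes name BWA, Picard and MACS2 and the build GRCm38, with no version. Per the layout of the deposited lists, their 9 columns hold a score, a fold enrichment (ratio), and −log10 values of a p-value and a q-value for every peak. These values were ranked within a list only, and −log10 q (column 9) gave the ranks. Peaks overlapping by at least 1 bp in the 4 lists were merged, without chromosome Y and mitochondrial peaks. Genes and starts came from RefSeq tables (GRCm38.p6). All 247 genes of 22 lists matched. The comparison, the lists and the genes of interest were chosen with earlier results of these data known. The genes that could be named were 32 such genes, the 4 members of each list and the 10 protein-coding genes overall with most Th1-only and with most naive-only regions, 155 in all; of these, those of known role are given. Cd80, Klrk1, Cd3d, Cd27, Ifngr2 and Il2 as printed promoters, and the genes at the ends of the rankings, were chosen after their values were seen. Depth is unknown, so the report gives no interval; 95% binomial intervals of the main shares serve only to judge the alternatives. The class calls were tested on simulated lists. Alternatives were equal lists, −log10 q of at least 2, 50% coverage of a region, merging within 100 bp or over 12 lists, other windows, distances and rank differences, and leaving out each library. Scripts ran in Python 3.11.15 with pandas 2.3.3, numpy 2.4.6 and scipy 1.17.1; figures were drawn with matplotlib 3.10.9.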

Additional observations from a re-analysis of the deposited data

Results flagged for a closer look

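In 13 regions the wild-type and knockout cells went in opposite directions with every library, since they were Th1-only in wild-type and naive-only in knockout cells. A further 77 regions were naive-only in wild-type and Th1-only in knockout cells. They were picked for this pattern and the difference between genotypes was not tested, and the naive libraries of each genotype are technical replicates. The 13 include 1 region in Lck, the kinase of the T cell receptor, and 2 in Gcnt1, a glycosyltransferase gene, and the 77 include 1 in Stat4. They are 0.128% of the Th1-only and 0.345% of the naive-only regions.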

How the results depend on the processing

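No paired analysis was possible because the results are counts and shares of called regions that come from no test. Merging within 100 bp changed none of the counts of regions by over 1.5 times, nor did a minimum −log10 q of 2, 50% coverage or merging over 12 lists. With equal lists naive-only regions numbered 12410, and with a rank difference of 30 points 2253 regions ranked higher and 2455 lower. Leaving out 1 library gave 10564 to 18295 Th1-only regions, the highest without Th1 replicate 2 (the shortest list), and 23986 to 28644 naive-only regions. The promoter share of Th1-only regions was 6.58% with equal lists, 3.28% with −log10 q of at least 2, 5.44% with 50% coverage, 2.72% within 500 bp and 6.39% within 2500 bp of a start, and 4.26% to 5.13% without 1 library. That of naive-only regions was 4.37%, 5.28%, 5.50%, 2.75% and 9.03% in the same order, 4.19% with regions merged over 12 lists, and 5.11% to 5.95% without 1 library. The share of Th1-only regions that recurred in knockout cells was 70.2% with equal lists, 75.5% with −log10 q of at least 2, 71.0% with 50% coverage, 77.4% with regions merged over 12 lists and 56.9% to 74.9% without 1 library. For naive-only regions it was 50.4% with equal lists, 34.6% with −log10 q of at least 2, 31.2% with 50% coverage, and 27.9% to 33.0% without 1 library. The causes were not tested. Of 44 gene list shares 41 stayed within their counting interval (95%, Clopper-Pearson) with equal lists and 34 with 50% coverage. Such intervals are wide for lists with few regions, so staying inside one says little about stability. The Th1-only share of CD8 and NK genes moved from 38.1% to 50.0% with equal lists, and that of all genes from 30.8% to 37.8%. Of 318 counts per named gene 200 stayed within 1.5 times with equal lists. Counts per gene are small and should be read beside their equal-list values.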
